A study of Mus musculus with 3 samples.

Results

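The genes described here are the growth factor gene Igf1, the receptor genes Igf1r and Igf2r, and the binding protein genes Igfbp2, Igfbp3, Igfbp4, Igfbp5, Igfbp6 and Igfbp7. They were chosen by name, as 9 of the 19165 genes in a single-cell expression table of developing mouse back skin, by a rule that uses no measured value, although earlier results of these data were known. Of the 16235 cells in the table, 5962 were taken on embryonic day E13.5, 5208 on E16.5 and 5065 from newborn mice (P0). The groups were all C57BL/6 males without a transgene or treatment named in the labels. Skin of several animals went into each group, and each stage is 1 droplet library read from the 3' end of transcripts. Trypsin with EDTA was used to dissociate the embryonic skin and collagenase IV the newborn skin. Stage, library and enzyme therefore cannot be told apart, and no difference below has a replicate check or a test. Every interval is a 95% interval that covers counting error only.

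Insulin-like growth factor 1 is a secreted growth factor that signals through the receptor tyrosine kinase encoded by Igf1r, upstream of the PI3 kinase and MAP kinase branches. The product of Igf2r, the cation-independent mannose 6-phosphate receptor, binds IGF2 and carries it to lysosomes without a kinase of its own. The IGF binding proteins are secreted and hold the growth factors in tissue and blood, where they can limit or prolong access to the receptor. In skin, dermal papilla cells at the base of the hair follicle are a known source of IGF1, and keratinocytes carry its receptor.

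Positions are from GENCODE vM21 (GRCm38). Igf1 occupies chr10:87858265-87937042, Igf1r chr7:67952827-68233668 and Igf2r chr17:12682406-12769664. Igfbp2 at chr1:72824503-72852474 and Igfbp5 at chr1:72857932-72874884 are neighbours that point towards each other, with 5457 bases and 0 annotated genes between them. Igfbp3 lies at chr11:7206086-7213923, Igfbp4 at chr11:99041244-99054392, Igfbp6 at chr15:102144362-102149511 and Igfbp7 at chr5:77349240-77408041. On the opposite strand, Igf1 overlaps Igf1os, Igf2r overlaps Airn, and Igfbp7 overlaps Polr2b and Gm34648. Whether reads were counted by strand is not given in the sources used here, so reads of these pairs may not have been kept apart.

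The 250 bases before the RefSeq start site (GRCm38.p6) are shown for Igf1, Igfbp3 and Igfbp4, which were high together in dermal condensate or papilla-like cells at E16.5, and for Igfbp5, which was low there. They are written 5' to 3' on the strand of the gene, and capitals mark matches to the motifs searched. The windows are chr10:87860861-87861110 (plus strand), chr11:7213924-7214173 (minus strand), chr11:99040994-99041243 (plus strand) and chr1:72874866-72875115 (minus strand), in the order of the lines. RefSeq and GENCODE start some of these genes at different bases. The Igf1 window lies inside the GENCODE span of Igf1 given above, and the Igfbp5 window overlaps the start of its span.
Igf1: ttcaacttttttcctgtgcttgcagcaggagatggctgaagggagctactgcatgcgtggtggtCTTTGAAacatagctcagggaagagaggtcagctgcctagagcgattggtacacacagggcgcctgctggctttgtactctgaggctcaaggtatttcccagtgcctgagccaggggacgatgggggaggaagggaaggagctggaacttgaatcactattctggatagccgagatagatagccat
Igfbp3: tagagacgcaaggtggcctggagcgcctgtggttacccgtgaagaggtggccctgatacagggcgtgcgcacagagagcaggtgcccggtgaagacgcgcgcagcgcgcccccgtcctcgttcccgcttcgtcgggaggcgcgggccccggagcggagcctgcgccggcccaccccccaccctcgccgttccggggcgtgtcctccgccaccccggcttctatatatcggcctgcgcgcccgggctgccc
Igfbp4: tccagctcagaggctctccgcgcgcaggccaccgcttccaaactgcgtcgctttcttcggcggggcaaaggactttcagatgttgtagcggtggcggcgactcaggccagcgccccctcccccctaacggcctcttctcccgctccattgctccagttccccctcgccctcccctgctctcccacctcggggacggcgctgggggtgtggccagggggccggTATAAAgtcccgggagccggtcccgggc
Igfbp5: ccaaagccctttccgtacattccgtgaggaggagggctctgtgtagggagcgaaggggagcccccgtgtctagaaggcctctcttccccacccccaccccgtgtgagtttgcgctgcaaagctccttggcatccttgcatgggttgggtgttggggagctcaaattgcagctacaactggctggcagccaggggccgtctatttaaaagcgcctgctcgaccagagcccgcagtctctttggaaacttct

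Short motifs were searched on both strands, and their share was taken over 32851 RefSeq promoters of the same length. The TATA box letters TATAAA were held by 12.4% of them. Of the letters that TCF and LEF factors are known to bind, the form CTTTGAA was held by 4.46% and the form CTTTGTT by 5.03%. The GC box letters GGGCGG were held by 32.7%. The Igf1 window held CTTTGAA and the Igfbp4 window TATAAA, and the windows of Igfbp3 and Igfbp5 held none of these letters. Among the windows not printed, GGGCGG was found for Igf1r, Igf2r, Igfbp2 and Igfbp7, and TATAAA on the minus strand for Igfbp6. These matches describe the letters alone.

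Cells of each stage were grouped by clustering on other genes, with the 9 genes and the IGF pathway genes left out. Clusters were named from fixed markers, and the names carry "-like" because they were rebuilt here. Levels are UMIs of the gene scaled to 1000000 UMIs of the group (CPM). The libraries held 53334740 (E13.5), 66239195 (E16.5) and 46599806 (P0) UMIs, with medians of 7066.5, 11021 and 6797 UMIs per cell. Any pair of libraries shared between 32 and 44 cell barcodes. Clusters with more markers of another lineage than of their own among their leading genes stayed unnamed and held 560, 256 and 259 cells.

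Erythroid-like cells, which should lack most of these transcripts, served as a measure of background. On E13.5 their levels were close to the average of the whole library. Their Igf1 level was 142 CPM where all cells had 153, and their Igfbp3 level 133 CPM where all cells had 131. Igfbp2 was at 281 against 321 CPM, Igfbp4 at 400.1 against 451, and Igfbp5 at 422 against 415. After thinning to 3500 UMIs per cell, 37.9% of the 512 erythroid-like cells held an Igf1 UMI, and 27.2% of dermal-like cells did. Without thinning the shares were 54.5% and 41.2%, at median depths of 5858 and 8386 UMIs. The erythroid-like level was not a floor shared by all cells. Melanocyte-like cells had 68.9 CPM of Igf1 and keratinocyte-like cells 55.3 CPM. The background of each other lineage at this stage is therefore not known. A level or share at or below the erythroid-like one may hold background in part or in whole, and how much was not tested.

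On E16.5 only 32 cells were erythroid-like. Their levels were again near the library average for Igfbp2, with 119 CPM (92.6 to 151) where all cells had 109.9, for Igfbp5, with 265 CPM (224 to 311) and 235, and for Igf2r, with 61.4 CPM (42.7 to 85.4) and 66.4. They were lower for Igf1, with 24.5 and 65.3 CPM, for Igfbp3, with 19.3 and 59.1, for Igfbp4, with 50.9 and 157, and for Igfbp7, with 22.8 and 227. No erythroid-like class was named in newborn skin.

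**Figure D1:**
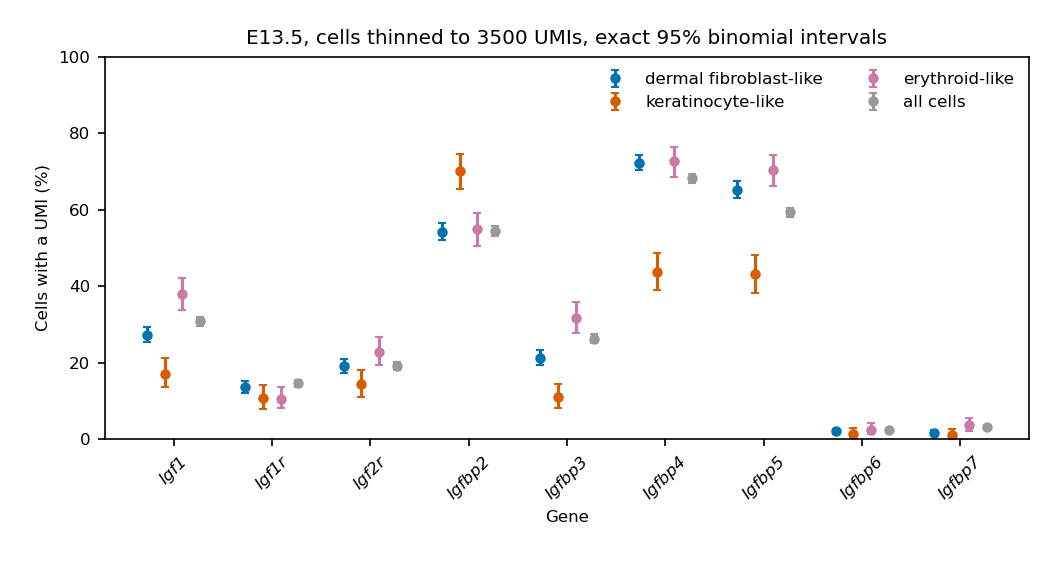
Share of E13.5 cells with at least 1 UMI (%) after thinning each cell to 3500 UMIs, for each gene, in dermal fibroblast-like, keratinocyte-like, erythroid-like and all cells. Points are shares and bars exact 95% binomial intervals; for Igf1 the erythroid-like share of 37.9% lies above the dermal-like share of 27.2%.

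Markers of the dermis were also found in the other lineages. The 10 dermal fibroblast markers summed to 9177 CPM in dermal-like cells of E13.5 and to between 2017 and 10377 CPM in the 11 other lineages. The highest of these other sums were 10377 CPM in tendon-like, 7274 CPM in cartilage-like and 6487 CPM in erythroid-like cells. How far tendon-like and cartilage-like cells express these markers themselves was not tested. For E16.5 the sums were 28519 CPM in dermal-like cells and 2198 to 8355 elsewhere, and for P0 41978 CPM and 2232 to 10047. In dermal-like cells all 10 markers stood at 10 CPM or more at each stage. The part of such UMIs in the embryonic levels below was not tested.

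Igf1 was highest in macrophage-like cells at both later stages and in part of the dermis, and was scarce in keratinocyte-like cells after E13.5. On E13.5 its level was 267 CPM (242 to 294) in cartilage-like, 165 CPM (152 to 179) in macrophage-like, 131 CPM (126 to 137) in dermal-like and 55.3 CPM (47.9 to 63.4) in keratinocyte-like cells. Only the cartilage-like level stood clear of its neighbour in the order of the 12 lineages. The 560 unnamed cells of that stage held 28.1% of the Igf1 UMIs with 10.2% of all UMIs, and Igf1 was among the leading genes of an unnamed cluster of 204 cells with tendon and dermal markers.

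On E16.5 Igf1 stood at 186 CPM (166 to 208) in macrophage-like, 95.3 CPM (91.99 to 98.7) in dermal-like and 79.96 CPM (73.3 to 87.05) in endothelial-like cells. These were apart from one another, and the 5 lineages below held between 3.598 and 12.3 CPM. Lymphatic endothelial-like cells, only 43 in number, reached 284 CPM (251 to 320.2). In newborn skin macrophage-like cells held 119.5 CPM (94.8 to 149), dermal-like cells 88.5 CPM (84.2 to 93.02), endothelial-like cells 19.7 CPM (15.1 to 25.2) and keratinocyte-like cells 4.24 CPM (3.35 to 5.28). Dermal-like cells then held 86.4% of the Igf1 UMIs with 37.9% of all UMIs.

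**Figure D2:**
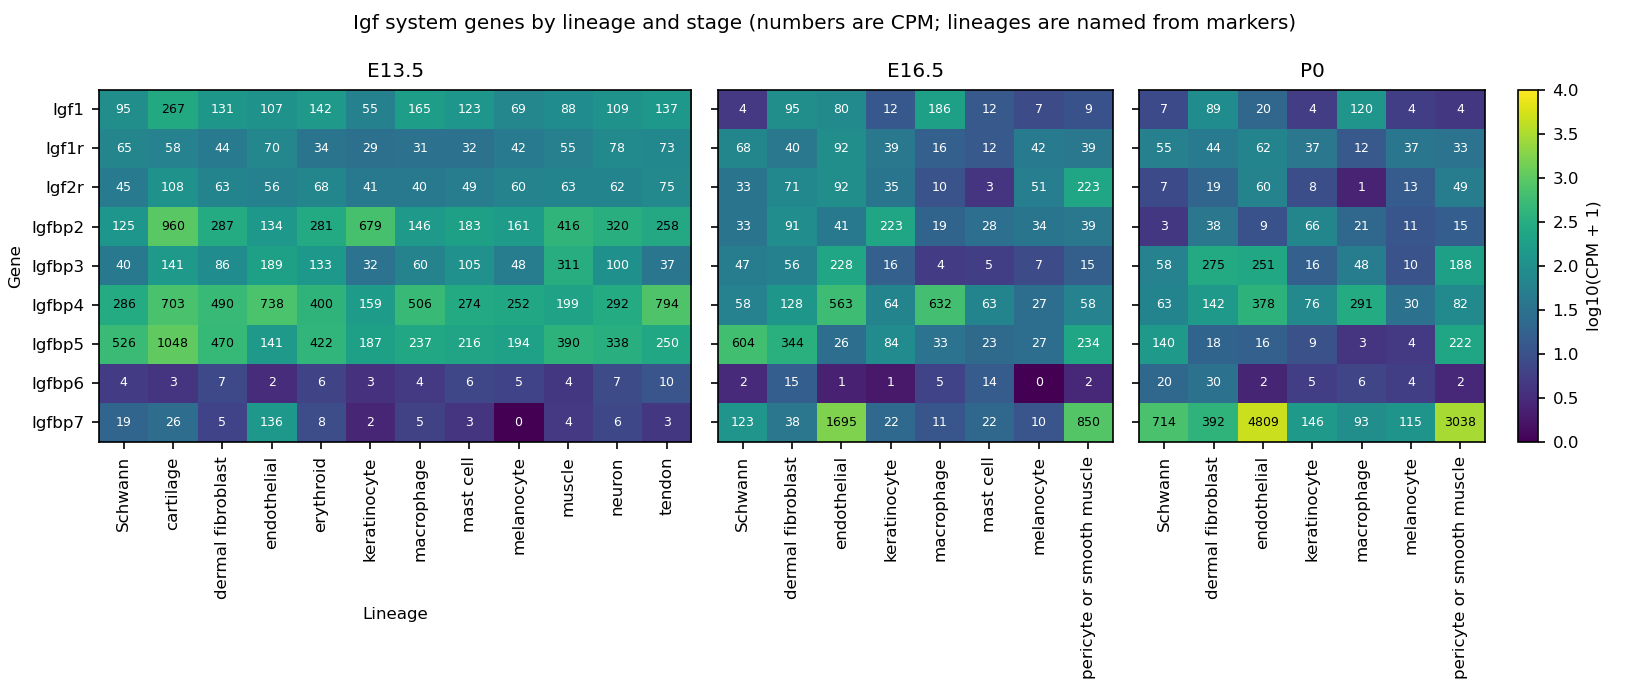
Level of each gene in every lineage with at least 50 cells, 1 panel per stage. Colour is log10(CPM + 1) and the printed number is the CPM. Igfbp7 in endothelial-like cells goes from 136 at E13.5 to 4809 at P0, while Igfbp5 in dermal-like cells goes from 469.7 to 18.3. The finer classes that make up these lineages differed between the stages.

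Igf1r was detected in every lineage. Its levels ranged from 29.3 to 78.2 CPM over the 12 lineages of E13.5, from 12.3 to 92.3 over the 8 of E16.5 and from 11.95 to 62.2 over the 7 of P0. Endothelial-like cells led on E16.5 with 92.3 CPM (85.1 to 99.9), clear of Schwann-like cells with 67.6 CPM (54.7 to 82.8). In newborn skin the endothelial-like, Schwann-like and dermal-like levels overlapped in turn. Keratinocyte-like cells held 29.3, 38.8 and 37.01 CPM at the 3 stages.

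Igf2r was even on E13.5 and uneven later. From tendon-like cells at 74.99 CPM down to macrophage-like cells at 40.3 CPM each interval overlapped the next, and cartilage-like cells stood above them with 108 CPM (92.8 to 126). On E16.5 pericyte or smooth muscle-like cells held 223 CPM (204 to 245), endothelial-like cells 92.1 CPM (84.97 to 99.7), dermal-like cells 71.4 CPM (68.6 to 74.4) and keratinocyte-like cells 34.6 CPM (31.7 to 37.7). In newborn skin endothelial-like cells with 60.3 CPM (52.02 to 69.5) and pericyte or smooth muscle-like cells with 48.7 CPM (38.8 to 60.4) were not apart, and the 5 other lineages lay at or below 19.3 CPM. Over all cells the level of Igf2r was 62.7, 66.4 and 17.96 CPM.

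Igfbp2, whose product binds both IGFs, was high in the epidermis. Keratinocyte-like cells held 679 CPM (653 to 707) on E13.5, 223 CPM (215 to 230.3) on E16.5 and 66.3 CPM (62.7 to 70.1) in newborn skin, the highest of the lineages at the later 2 stages. Cartilage-like cells were higher on E13.5, with 959.8 CPM (912 to 1009.7). Periderm-like cells, the outermost embryonic layer, then held 975 CPM (926 to 1026) and suprabasal-like cells 209 CPM (174 to 247). Among newborn keratinocyte-like classes, basal-like cells held 355 CPM (330.4 to 381) and suprabasal-like cells 41.2 CPM. Placode or follicle keratinocyte-like cells held 23.7 CPM and hair matrix, root sheath or shaft-like cells 13.48 CPM. Unnamed cells held a further 31.0% of the newborn Igfbp2 UMIs with 5.60% of all UMIs, and 194 of these 259 cells formed a cluster with keratinocyte markers and globin genes in the lead.

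Igfbp3, which encodes the main IGF carrier of adult plasma, was highest in muscle-like cells on E13.5, with 311 CPM (297 to 325). Endothelial-like cells held 189 CPM (174 to 205), 228 CPM (216 to 239) and 251 CPM (234 to 269) at the 3 stages. Dermal-like cells had 86.1 CPM (81.8 to 90.6), 55.6 CPM (53.1 to 58.2) and 275 CPM (267 to 283), and in newborn skin they were not apart from endothelial-like cells. Pericyte or smooth muscle-like cells held 15.3 CPM (10.5 to 21.7) on E16.5 and 188 CPM (168 to 210.1) in newborn skin. Keratinocyte-like cells stayed low, with 32.01, 15.8 and 15.98 CPM.

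Igfbp4, whose product is cleaved by PAPP-A to release the growth factor, was widespread on E13.5 and narrower later. Tendon-like, endothelial-like and cartilage-like cells led first, with 794, 738 and 703 CPM, and their intervals overlapped in turn. Macrophage-like cells led on E16.5 with 632 CPM (594 to 671), above endothelial-like cells with 563 CPM (546 to 582). In newborn skin endothelial-like cells were above macrophage-like cells, with 378 CPM (357 to 400.3) and 291 CPM (252 to 335). Keratinocyte-like cells held 159, 63.5 and 75.7 CPM.

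Igfbp5, whose product also binds extracellular matrix, was far lower in newborn skin. Over all cells its level was 415 CPM (409.7 to 421), then 235 CPM (232 to 239) and last 21.996 CPM (20.7 to 23.4). Dermal-like cells held 469.7, 344 and 18.3 CPM, and Schwann-like cells 526, 604 and 139.7 CPM. Pericyte or smooth muscle-like cells were the exception, with 234 CPM (213 to 255) on E16.5 and 222 CPM (200.01 to 245) in newborn skin, values whose intervals overlapped. That lineage then held 36.9% of the Igfbp5 UMIs with 3.66% of all UMIs.

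Igfbp6, which prefers IGF2 over IGF1, was low in most classes and highest in deep dermis-like cells at the later stages. Its level was at or below 10.3 CPM in each of the 12 lineages of E13.5, and neighbours in that order overlapped throughout. Deep dermis-like cells held 78.95 CPM (71.2 to 87.3) on E16.5, and the 3 other dermal-like classes were at or below 5.302 CPM. In newborn skin deep dermis-like cells held 114 CPM (104 to 125), adipocyte-like cells 12.04 CPM (6.88 to 19.6), and the 3 remaining dermal-like classes were at or below 3.22 CPM. Outside the dermal lineage, mast cell-like cells held 13.8 CPM on E16.5 and Schwann-like cells 20.4 CPM in newborn skin. These rested on 9 and 12 UMIs, and their intervals overlapped those of dermal-like cells (14.7 and 29.8 CPM).

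Igfbp7, which binds IGFs weakly and is known as a product of vessel walls, was highest in vessel cells. Endothelial-like cells held 136 CPM (123 to 149) on E13.5, and the next lineage, cartilage-like, 26.3 CPM. On E16.5 endothelial-like cells held 1695 CPM (1664 to 1727) and pericyte or smooth muscle-like cells 849.8 CPM (811 to 890.4). In newborn skin the levels were 4809 CPM (4732 to 4886) and 3038 CPM (2956 to 3122). Each of the 7 newborn lineages was apart from the next except melanocyte-like from macrophage-like cells. Endothelial-like cells held 56.3%, 75.2% and 47.7% of the Igfbp7 UMIs with 5.81%, 10.1% and 6.76% of all UMIs. The make-up of this lineage changed between the libraries. Lymphatic endothelial-like cells were 188 of its 287 cells on E13.5, 43 of 351 on E16.5 and 12 of 261 in newborn skin. The part of this make-up in the endothelial-like levels of each gene by stage was not tested.

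The vessel types differed on E13.5, in a comparison chosen after the values were seen. Blood endothelial-like cells held 303 CPM (274 to 335) of Igfbp7 and lymphatic endothelial-like cells 20.2 CPM (14.2 to 27.8), a log2 difference of 3.38 (3.02 to 3.72). The 8 pericyte or smooth muscle markers, of the other lineage high in Igfbp7, summed to 201 CPM in the blood and 71.4 CPM in the lymphatic endothelial-like cells, and Rgs5, a pericyte marker, was among the leading genes of a blood endothelial-like cluster of 25 cells. The part of these markers in the difference was not tested. Igfbp3 was split the same way, with 377 CPM (344 to 412) and 59.4 CPM (48.8 to 71.6). Igfbp4 was higher in the lymphatic endothelial-like cells, with 607 CPM (564 to 651) and 829 CPM (787 to 871). From E16.5 to newborn skin, blood endothelial-like cells had log2 differences of 1.42 (1.39 to 1.46) for Igfbp7, 0.01 (-0.11 to 0.13) for Igfbp3 and -0.996 (-1.29 to -0.695) for Igf1. Pericyte or smooth muscle-like cells had 2.97 (2.61 to 3.31) for Igfbp3, 1.83 (1.75 to 1.904) for Igfbp7, -1.99 (-2.29 to -1.699) for Igf2r and -0.07 (-0.26 to 0.12) for Igfbp5.

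Dermal-like and keratinocyte-like cells were compared within each library. The keratinocyte-like cells took in epidermis and follicle, and their make-up changed between the libraries. On E13.5, 148 of 404 were periderm-like. Placode or follicle keratinocyte-like cells numbered 228 of 955 on E16.5 and 240 of 1397 at P0. Hair matrix, root sheath or shaft-like cells numbered 202 at P0. Those that matched no finer class numbered 127, 639 and 590. At P0 their clusters had Lhx2 or Tbx1 among the leading genes. Differences are log2 ratios of CPM + 10, and a gene counts as apart at 2-fold or more with at least 50 UMIs over both groups. On E13.5, 4 of the 9 genes were at least 2-fold higher in dermal-like cells, where 4.25% of all compared genes were, and 1 was at least 2-fold lower, where 4.48% were. The higher ones were Igf1 with 1.11 (0.94 to 1.296), Igfbp3 with 1.19 (0.98 to 1.41), Igfbp4 with 1.57 (1.45 to 1.68) and Igfbp5 with 1.28 (1.18 to 1.39). Igfbp2 was lower, with -1.22 (-1.28 to -1.15). The median over the 9 genes was 0.51, beside 0.03 over all compared genes. Both groups carry the background described above. The dermal-like levels of Igf1 (131 CPM) and Igfbp3 (86.1 CPM) lay below the erythroid-like levels of 142 and 133 CPM, and those of Igfbp4 (490.1 CPM) and Igfbp5 (469.7 CPM) above 400.1 and 422 CPM. The dermal-like levels are averages over finer classes, and for Igf1 these lay on either side of the erythroid-like level, as given below.

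On E16.5, 4 genes were at least 2-fold higher in dermal-like cells (7.22% of all compared genes) and 1 was lower (4.36%). The higher ones were Igf1 with 2.28 (2.16 to 2.41), Igfbp3 with 1.34 (1.22 to 1.47), Igfbp5 with 1.91 (1.83 to 1.98) and Igfbp6 with 1.18 (1.09 to 1.25), and the lower one was Igfbp2 with -1.201 (-1.27 to -1.14). In newborn skin 4 were higher (7.59%) and 0 were lower (5.17%). These were Igf1 with 2.79 (2.68 to 2.89), Igfbp3 with 3.46 (3.35 to 3.56), Igfbp6 with 1.45 (1.32 to 1.58) and Igfbp7 with 1.36 (1.302 to 1.42), while Igfbp2 had -0.68 (-0.795 to -0.57). Igfbp2 was at least 2-fold lower under 5 of its 10 alternatives, with values between -0.597 and -2.93, and -1.04 when the clusters led by another lineage were kept. On E16.5 the dermal-like Igfbp2 level of 91.2 CPM lay below the erythroid-like 119 CPM. The medians over the 9 genes were 0.904 and 0.83, beside 0.04 and -0.05 over all compared genes. For Igf1r the differences were 0.47 (0.24 to 0.69), 0.02 (-0.09 to 0.14) and 0.21 (0.09 to 0.33). The Igfbp4 differences of 0.904 and 0.83 at the later stages became -0.014 and -0.50 when cells were sorted by their own marker UMIs in place of clusters.

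Dermal-like cells were then followed from library to library. Between E13.5 and E16.5, 1 of the 9 genes was at least 2-fold higher (1.92% of all compared genes) and 2 were at least 2-fold lower (1.8%). Igfbp7 was higher, with a log2 difference of 1.63 (1.51 to 1.75). Igfbp2 was lower, with -1.55 (-1.61 to -1.49), as was Igfbp4, with -1.86 (-1.91 to -1.81). The median was -0.42 over the 9 genes and -0.08 over all compared genes. In macrophage-like cells the differences of Igfbp2, Igfbp3 and Igfbp5 over the same interval were -2.44, -2.29 and -2.54. The part of the E13.5 background in these lower levels was not tested.

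Between E16.5 and newborn skin, 2 genes were at least 2-fold higher in dermal-like cells (2.02% of all compared genes) and 3 were lower (2.47%). Igfbp3 was higher, with 2.12 (2.05 to 2.19), and so was Igfbp7, with 3.07 (2.99 to 3.14). Igfbp5 was lower, with -3.65 (-3.75 to -3.54), followed by Igf2r with -1.48 (-1.59 to -1.36) and Igfbp2 with -1.09 (-1.19 to -0.99). Igf1, Igf1r and Igfbp4 differed by -0.096 (-0.18 to -0.02), 0.13 (0.03 to 0.24) and 0.15 (0.08 to 0.21), and the median was 0.13 over the 9 genes and -0.12 over all compared genes. None of these 3 directions held under every alternative: with classes from the marker UMIs of each cell the values were 0.13, -0.0087 and -0.51, Igf1 had 0.63 with at least 2500 genes per cell, and Igfbp4 -0.15 with each cell weighted alike. Keratinocyte-like cells had differences of -2.31 for Igfbp5, -1.29 for Igf2r, 2.29 for Igfbp7 and 0.01 (-0.15 to 0.16) for Igfbp3. Their make-up also differed between these libraries, and its part in these values was not tested.

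**Figure D3:**
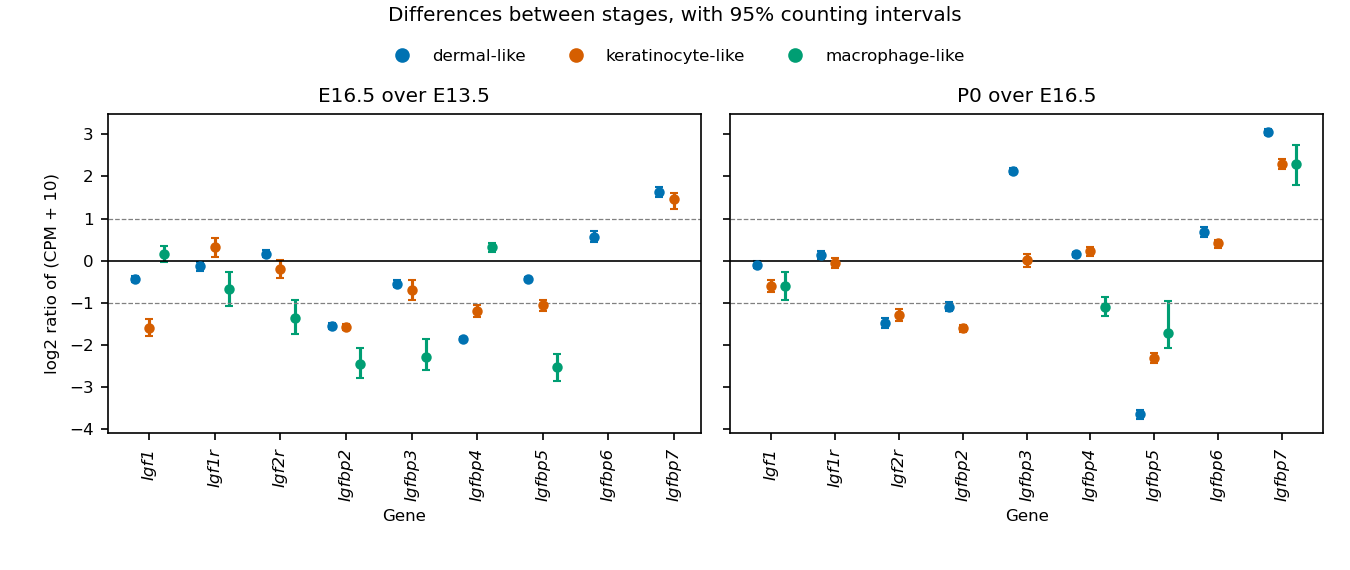
Log2 ratio of (CPM + 10) between stages for each gene in dermal-like, keratinocyte-like and macrophage-like cells, with 95% counting intervals; dashed lines mark a 2-fold difference, and a gene with fewer than 50 UMIs over both stages has no point. In dermal-like cells from E16.5 to P0, Igfbp5 lies at -3.65 and Igfbp7 at 3.07.

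The make-up of the dermal-like cells changed between the libraries. Upper dermis-like cells numbered 755, 945 and 456 at the 3 stages, deep dermis-like cells 423 on E16.5 and 580 in newborn skin, condensate or papilla-like cells 377 and 195, and adipocyte-like cells, in newborn skin alone, 115. Those that matched no finer class numbered 1176, 1285 and 1292. Stage differences were therefore also taken within the finer classes, a step chosen after the values were seen. Between E16.5 and newborn skin the Igfbp5 log2 difference was -5.14 (-5.36 to -4.82) in upper dermis-like, -2.99 (-3.202 to -2.78) in deep dermis-like and -2.38 (-2.74 to -1.91) in condensate or papilla-like cells. In levels, upper dermis-like cells had 459.9 CPM (446 to 474) and then 3.33 CPM (1.44 to 6.55). Igfbp3 was higher in newborn cells of the same 3 classes, with 2.25, 1.57 and 2.79, and Igf2r had -1.35, -1.92 and -0.57.

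Igfbp7 differed more between the finer classes. Its log2 difference between E16.5 and newborn skin was 0.95 (0.68 to 1.22) in upper dermis-like, 3.45 (3.31 to 3.59) in deep dermis-like and 2.100 (1.78 to 2.41) in condensate or papilla-like cells. At P0 it stood at 44.5 CPM (36.5 to 53.8) in upper dermis-like, 895 CPM (867 to 924) in deep dermis-like and 1722 CPM (1652 to 1794) in adipocyte-like cells. The 9 endothelial markers summed to 47.0 CPM in the deep dermis-like and 62.5 CPM in the adipocyte-like cells, against 6178 CPM in endothelial-like cells. The 8 pericyte or smooth muscle markers summed to 138 and 49.7 CPM in them, against 9861 CPM in their own lineage.

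Igf1 went different ways in the finer classes. Between E16.5 and newborn skin its difference was 0.71 (0.47 to 0.94) in upper dermis-like, -0.801 (-0.97 to -0.63) in deep dermis-like and -1.503 (-1.73 to -1.28) in condensate or papilla-like cells. The deep dermis-like value was 0.30 at clustering resolution 2. Between E13.5 and E16.5 Igfbp4 had -3.23 (-3.38 to -3.08) in upper dermis-like cells, with 309 and 23.95 CPM, the first including the E13.5 background.

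**Figure D4:**
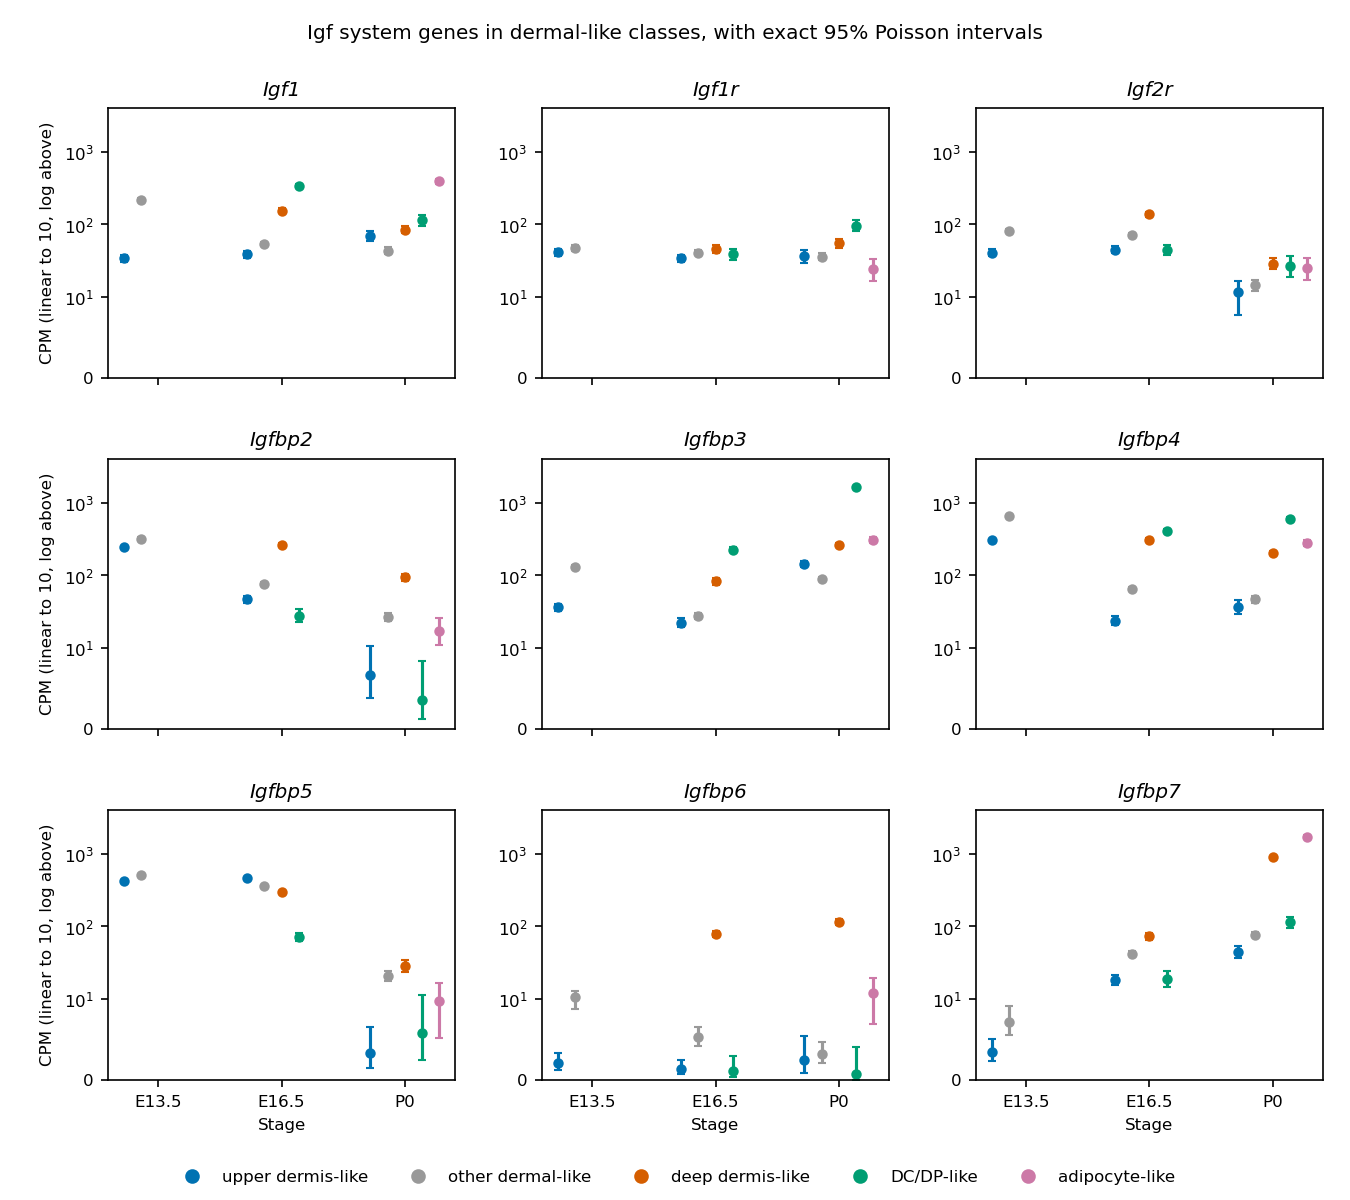
Level of each gene (CPM, on an axis linear to 10 and logarithmic above) at each stage in the dermal-like classes that had at least 50 cells, with exact 95% Poisson intervals. Condensate or papilla-like cells lie highest for Igfbp3 at both later stages, at 227 and 1630.4 CPM, and deep dermis-like cells for Igfbp6, at 78.95 and 114 CPM.

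The dermal condensate and its later form, the dermal papilla, are the signalling cells of the hair follicle. On E16.5 the condensate or papilla-like cells held 341 CPM (322 to 361) of Igf1, 227 CPM (212 to 243) of Igfbp3 and 415 CPM (394 to 437) of Igfbp4. Upper dermis-like cells held 38.9 CPM (34.9 to 43.3), 22.6 CPM (19.5 to 25.96) and 23.95 CPM (20.8 to 27.4). Igfbp5 went the other way, with 72.3 CPM (63.6 to 81.7) in condensate or papilla-like and 459.9 CPM (446 to 474) in upper dermis-like cells, on either side of the erythroid-like 265 CPM. Of the 8 genes compared, 3 were at least 2-fold higher (2.99% of all compared genes) and 1 was lower (1.26%), with a median of 0.09 beside 0.05 over all compared genes. The log2 differences were 2.84 (2.697 to 2.99) for Igf1, 2.86 (2.69 to 3.03) for Igfbp3, 3.65 (3.49 to 3.803) for Igfbp4 and -2.51 (-2.68 to -2.35) for Igfbp5. Those of Igf1r, 0.14 (-0.09 to 0.38), and Igf2r, -0.01 (-0.24 to 0.21), included 0.

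At P0 the condensate or papilla-like cells still led the dermal-like classes for Igfbp3 and Igfbp4. Igfbp3 reached 1630.4 CPM (1564 to 1699), with 145 CPM (129.9 to 161) in upper dermis-like cells, and Igfbp4 593 CPM (553 to 635), with 37.01 CPM (29.7 to 45.5). Igf1r stood at 95.8 CPM (80.2 to 114), with 36.6 CPM (29.3 to 45.1) in upper dermis-like cells. Igf1 was at 114 CPM (96.8 to 133) and 69.9 CPM (59.7 to 81.3), and adipocyte-like cells were the highest dermal-like class, with 391 CPM (358 to 426). Of the 6 genes compared, 4 were at least 2-fold higher (6.81% of all compared genes) and 0 were lower (3.61%), with a median of 1.18 beside 0.11 over all compared genes. The log2 differences were 3.41 (3.25 to 3.56) for Igfbp3, 3.68 (3.42 to 3.94) for Igfbp4, 1.18 (0.85 to 1.52) for Igf1r and 1.19 (0.87 to 1.498) for Igfbp7. The 9 endothelial markers summed to 119.8 CPM in these cells and to 54.1 CPM in upper dermis-like cells, and their part in the Igfbp7 difference was not tested. All 14 condensate or papilla markers stood at 10 CPM or more, with a sum of 4299 CPM and 738 CPM in upper dermis-like cells. Of the 195 condensate or papilla-like cells, 43 fell with dermal-like cells in a first clustering. The others, in clusters of 49, 46, 29 and 28 cells, fell with endothelial-like cells and were renamed from markers when clustered again. Igfbp3 was among the leading genes of the cluster of 49 cells.

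The deep dermis borders the subcutaneous layer. On E16.5, 7 of the 9 genes were at least 2-fold higher in deep dermis-like than in upper dermis-like cells (3.39% of all compared genes) and 0 were lower (1.69%), with a median of 1.56 beside -0.07 over all compared genes. The differences were 3.25 (3.09 to 3.403) for Igfbp4, 2.97 (2.81 to 3.07) for Igfbp6 and 2.26 (2.12 to 2.404) for Igfbp2, and the other 4 lay between 1.42 for Igf2r and 1.76 for Igf1. In levels, Igfbp2 was at 263 CPM (249 to 278) against 46.9 CPM (42.4 to 51.6), and Igf2r at 138 CPM (128 to 149) against 45.3 CPM (40.9 to 49.95). Igfbp5 differed by -0.62 (-0.700 to -0.53) and Igf1r by 0.34 (0.13 to 0.54).

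In newborn skin 5 genes were at least 2-fold higher in deep dermis-like cells (4.55% of all compared genes) and 0 were lower (4.86%), with a median of 1.53 beside -0.22 over all compared genes. The differences were 4.05 (3.82 to 4.29) for Igfbp7, 3.31 (2.99 to 3.52) for Igfbp6, 2.64 (2.298 to 2.93) for Igfbp2, 2.18 (1.92 to 2.44) for Igfbp4 and 1.53 (1.17 to 1.79) for Igfbp5. Under the alternatives the Igfbp5 difference ranged from 0.40 to 2.77. For Igf1 the difference was 0.25 (0.01 to 0.49). Igfbp6 did not enter the clustering. It was among the leading genes of a deep dermis-like cluster of 34 cells on E16.5 and of another of 192 cells in newborn skin. The deep dermis-like class held 423 and 580 cells at these stages, and its other clusters did not have Igfbp6 among their leading genes.

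On E13.5 no condensate or papilla-like and no deep dermis-like class could be named. The other dermal-like cells were compared with the upper dermis-like cells after the values were seen. In them 3 of 9 genes were at least 2-fold higher (1.07% of all compared genes) and 0 were lower (1.13%), with a median of 0.79 beside -0.03 over all compared genes. The differences were 2.37 (2.22 to 2.51) for Igf1, 1.59 (1.44 to 1.74) for Igfbp3 and 1.05 (0.99 to 1.12) for Igfbp4. Igf1 was at 218 CPM (209 to 228) in the other dermal-like and 34.2 CPM (30.3 to 38.4) in the upper dermis-like cells, the latter below the erythroid-like level of 142 CPM.

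The genes whose log2(CPM + 10) followed each of the 9 most closely were ranked by Pearson's r over 45 class-by-stage groups among 11683 genes. These groups share libraries but no cells, finer classes standing in for the lineages that were divided. With groups of the same library not independent, r is a description only. Igf1 was closest to Colec12 (0.81), Clmp (0.78) and Emilin1 (0.74), and Igf1r to Pcdhga12 (0.79), 2700081O15Rik (0.77) and Id3 (0.77). Igf2r was closest to Airn (0.89), which overlaps it, Obsl1 (0.83) and Cul7 (0.81). Igfbp2 followed Igf2bp1 (0.80), Kcnq1ot1 (0.78) and H19 (0.78). Igfbp3 followed Plpp1 (0.73), Ebf1 (0.71) and Hey1 (0.70), and Igfbp4 followed Zfp423 (0.74), Prom1 (0.73) and Rab3il1 (0.72). Igfbp5 was closest to Zcchc3 (0.88), Dzip3 (0.87) and 1110037F02Rik (0.85). Igfbp6 was closest to Clec11a, Clec3b and Mfap5 (0.85 each), and Igfbp7 to Fabp4 (0.88), Hrct1 (0.85) and Col4a1 (0.85). Among the 9 genes themselves, Igf1 and Igfbp4 had the highest r (0.79) and Igfbp2 and Igfbp7 the lowest (-0.60).

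The IGF pathway outside the 9 genes was followed with a list of 42 genes. Igf2, the growth factor of fetal life, stood over all cells at 1230.0 CPM on E13.5, 844 on E16.5 and 46.3 in newborn skin. Dermal-like cells held 1509, 1075 and 68.1 CPM of Igf2, and the last step was a log2 difference of -3.797 (-3.87 to -3.72). On E16.5 Igf2 was at 2923 CPM (2875 to 2972) in deep dermis-like and 149 CPM (136 to 162) in condensate or papilla-like cells. Insr, which encodes the insulin receptor, was low over all cells, with 11.9, 14.1 and 10.8 CPM.

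Between dermal-like and keratinocyte-like cells, 3 of the 38 pathway genes compared on E13.5 were at least 2-fold higher and 1 lower (4.25% and 4.48% of all compared genes). On E16.5 the counts were 5 and 1 of 39 (7.22% and 4.36%), and in newborn skin 6 and 1 of 39 (7.59% and 5.17%). Ghr, the growth hormone receptor gene, was higher in dermal-like cells each time, with log2 differences of 1.22, 1.28 and 1.64. So was Pappa2, which encodes a protease that cleaves IGF binding proteins, with 1.52, 1.84 and 1.24. Hras, a gene of the MAP kinase branch, was lower each time, with -1.16, -1.65 and -2.03. The medians of the list were -0.02, 0.06 and 0.06, beside 0.03, 0.04 and -0.05 over all compared genes.

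Among the stages of dermal-like cells, 1 pathway gene of 40 was at least 2-fold higher and 1 lower between E13.5 and E16.5 (1.92% and 1.8% of all compared genes), and 1 of 39 was higher and 6 were lower between E16.5 and newborn skin (2.02% and 2.47%). Htra1, which encodes a secreted protease that cleaves IGF binding proteins, was the higher one both times, with 2.26 and 1.01. Lower in newborn skin beside Igf2 were Pappa2 with -1.22, Pik3r1 with -1.36, Igf2bp1 with -1.36, Igf2bp2 with -1.33 and Akt1 with -1.005. In condensate or papilla-like against upper dermis-like cells, 1 of 37 pathway genes was higher and 1 lower on E16.5 (2.99% and 1.26%), and 5 of 29 were higher and 1 lower in newborn skin (6.81% and 3.61%). Pik3r1, which encodes a regulatory subunit of PI3 kinase, was higher both times, with 1.51 and 2.03. Grb14, the gene of an adaptor that binds insulin family receptors, had 2.56 in newborn skin. In deep dermis-like against upper dermis-like cells, 4 of 36 were higher on E16.5 (3.39%) and 3 of 33 in newborn skin (4.55%), among them Igf2 with 2.87 and 3.01, and 0 were lower (1.69% and 4.86%).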

How the data were processed

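RNA was sequenced from the 3' end in single back skin cells of male mice on E13.5, E16.5 and P0, each stage being 1 droplet library. Reads were aligned to mm10 by the authors, who counted UMIs with Cell Ranger 2.2.0 (versions per the submitters' processing notes), left out genes found in fewer than 3 cells, required 1750 genes per cell, and deposited the natural log of 1 plus UMIs scaled to 10000 per cell. All 48197283 values above 0 returned to whole UMIs within 0.001, and these UMIs were used. The table held 16235 cells, all with at least 1750 genes, and the series description names 15086. Stages were taken from the column prefixes that the labels give.

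The 9 genes, the marker lists and the pathway list were chosen with earlier results of these data known. The genes named are the 9, the pathway genes, and for each of the 9 the 3 genes with the highest Pearson's r among genes with at least 500 UMIs. Cells of each stage were clustered on 2000 variable genes without the 9 and the pathway genes (30 principal components, 15 neighbours, Leiden resolution 1; scanpy 1.11.5, leidenalg 0.10.2, Python 3.11.15, numpy 2.4.6, scipy 1.17.1). A cluster took a lineage when at least 3 markers stood at a log2 difference of 1 or more over the 25th percentile of clusters, and stayed unnamed when its 10 leading genes held more markers of another lineage than of its own. A finer class needed 44% of its markers and a mean log2 difference of 0.75, values set after seeing the data. Doublets were called with Scrublet (0 at E13.5, where the caller did not work, 84 at E16.5 and 106 at P0) and kept.

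UMIs were summed per class and stage. Levels carry exact Poisson intervals, shares exact binomial intervals, and log2 ratios exact conditional binomial intervals at 95%. Cells of 1 library are not replicates, so no test across conditions was possible and no p-value is given. The calculation was tested on simulated counts. Alternatives were other clustering resolutions (0.5 and 2), naming over the median, naming by the marker UMIs of each cell (with cut-offs set after seeing the data), doublets left out, at least 2500 genes per cell, equal weight per cell, no minimum of UMIs, 1 CPM added and a 1.5-fold threshold. Keeping clusters led by markers of another lineage, and running the finer classes under these settings, were added after seeing the data. Promoter sequences came from RefSeq, which held all 9 genes.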

Additional observations from a re-analysis of the deposited data

Results flagged for a closer look

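Several log2 differences had opposite signs in different groups under the same contrast, with counting intervals that left out 0 in each. With 1 library per stage, whether these effects differ was not tested.

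Igfbp5 was lower in deep dermis-like than in upper dermis-like cells on E16.5 (-0.62) and higher in newborn skin (1.53), where the upper dermis-like level was 3.33 CPM. Under the alternatives the newborn difference ranged from 0.40 to 2.77. Placode or follicle keratinocyte-like cells were set against the keratinocyte-like cells that matched no finer class, after the values were seen. The Igfbp4 difference was 1.15 on E16.5 and -1.68 in newborn skin, and the Igfbp7 difference 0.94 and -0.62. The reference class was unlike at these stages. At P0 each of its clusters had Lhx2 or Tbx1 among its leading genes. On E16.5 only its cluster of 76 cells had Lhx2 there, and none had Tbx1. Those of 154, 119 and 105 cells had Krt14, Krt15 and Krt5. The part of this make-up in the opposite signs was not tested. Hair matrix, root sheath or shaft-like cells were a class of their own in newborn skin only.

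Between the embryonic stages Igf1r differed by -0.13 in dermal-like, 0.31 in keratinocyte-like and -0.68 in macrophage-like cells. Over the same interval Igf2r had 0.17 in dermal-like and -1.36 in macrophage-like cells, and Igfbp4 had -1.86 in dermal-like, -1.198 in keratinocyte-like and 0.31 in macrophage-like cells. Between E16.5 and newborn skin Igfbp4 had 0.15 in dermal-like, 0.22 in keratinocyte-like and -1.09 in macrophage-like cells, of which newborn skin held 66.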

How the results depend on the processing

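Of 110 counts of genes apart under an alternative, 101 stayed within 1.5 times the value given. Of 832 log2 differences, 524 stayed within the counting interval of the value given, 293 moved outside it with the same direction or from an interval that held 0, and 15 changed sign. The 0 genes lower in dermal-like than in keratinocyte-like cells at P0 became 1 at resolution 0.5, at resolution 2, with classes from each cell's marker UMIs, with at least 2500 genes per cell, at the 1.5-fold threshold, and with clusters led by another lineage kept. The 2 lower from E13.5 to E16.5 became 4 with classes from marker UMIs, the 1 higher became 2 with 1 CPM added, and the 4 higher in dermal-like cells at E16.5 became 7 at 1.5-fold. With classes from marker UMIs, signs changed for Igfbp4 in dermal-like over keratinocyte-like cells (-0.014 at E16.5, -0.50 at P0), for Igf1r (0.0097) and Igfbp6 (-0.092) from E13.5 to E16.5 in dermal-like cells, and for Igf1 (0.13), Igf1r (-0.0087) and Igfbp4 (-0.51) from E16.5 to P0. In the last, Igf1 had 0.63 with at least 2500 genes per cell and Igfbp4 -0.15 with equal weight per cell. In finer classes, Igfbp2 in condensate or papilla-like over upper dermis-like cells at E16.5 had 0.0049 at resolution 2. From E16.5 to P0, Igfbp4 in upper dermis-like cells had -0.29 with at least 2500 genes per cell, Igf1 in deep dermis-like cells 0.30 at resolution 2, and Igfbp6 there -0.98 at resolution 0.5, -0.96 with at least 2500 genes and -0.43 without called doublets. The cause of these changes was not tested. The P0 Igfbp3 difference between condensate or papilla-like and upper dermis-like cells ranged from 2.86 to 3.90, that of Igfbp4 from 3.15 to 4.02, and the Igfbp5 difference from E16.5 to P0 in upper dermis-like cells from -6.74 to -4.56. The P0 Igf1r difference in condensate or papilla-like cells ranged from 0.93 to 1.36, and that of Igfbp7 from 0.71 to 1.47. In deep dermis-like over upper dermis-like cells, Igf1 at E16.5 ranged from 0.82 to 2.57 and Igfbp5 at P0 from 0.40 to 2.77. These genes were therefore not at least 2-fold higher under every alternative. The Igf1 difference from E16.5 to P0 in upper dermis-like cells ranged from 0.096 to 0.83. Of 243 highest lineages, 224 stayed the same. The comparisons of condensate or papilla-like and deep dermis-like with upper dermis-like cells could not be run when naming over the median of the clusters, nor at resolution 0.5 for E16.5. Thinning moved each of the 27 shares of cells with a UMI. No paired analysis was possible because each stage has 1 library. Depth limits the low levels, such as Igfbp6 at E13.5, where neighbouring lineages overlapped.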
